A study of Mus musculus with 4 samples.

Results

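The 9 genes described here encode the peptide hormones and granule proteins of the pancreatic islet, and they were followed in white blood cells of the pancreas. The members are Ins1 and Ins2 (insulin), Iapp (islet amyloid polypeptide, which beta cells release with insulin), Gcg (glucagon), Sst (somatostatin), Ppy (pancreatic polypeptide), Pyy (peptide YY), and the granins Chga and Scg2, which pack hormone granules. They were found by symbol, and all 9 were present among 31053 features. The data were counts of unique molecular identifiers (UMIs, 1 per captured RNA molecule) in single cell barcodes, made with a droplet kit that reads the 5′ ends of transcripts. The pancreas libraries held CD45+ leukocytes sorted by flow cytometry from pre-diabetic females aged 12 weeks. The lymph node libraries held CD3 T cells, selected magnetically from the pancreatic lymph nodes of pre-diabetic females aged 8 weeks. Each tissue had a control library from Ocabfl/fl animals and a CD4-Cre library from Ocabfl/fl.CD4-Cre animals. Ocab, now Pou2af1, is a transcriptional coactivator, and the floxed alleles were carried by the controls too. Cre under the Cd4 promoter deletes them in T cells. Cells of 4 mice were pooled in each pancreas library and cells of 5 mice in each lymph node library, so each group was 1 library with no replicate. Every interval below is a 95% interval that covers counting error only, and no p-value was computed. UMIs of a hormone lay clumped in few barcodes, so intervals on sums of UMIs are narrower than the true uncertainty, and shares of barcodes are the steadier description.

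Islets are small endocrine organs embedded in the exocrine pancreas. Beta cells store insulin and Iapp in dense granules, alpha cells make glucagon, delta cells make somatostatin, and the surrounding acinar cells make digestive enzymes. Macrophages live both inside islets and between the acini, and those of islets are known to take in insulin granules and to present insulin peptides to T cells, as dendritic cells also can. A hormone UMI in a leukocyte barcode can also come from free RNA that entered the droplet, which all barcodes of a library receive, or from a second cell in the droplet. T cells do not express islet hormones, so the T cell barcodes of the same library served as the reference for that background.

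The pancreas libraries listed 4524 barcodes (control) and 6963 barcodes (CD4-Cre), of which 4011 and 6258 were kept, at medians of 3591 and 3612 UMIs. In T cell barcodes the targeted gene Pou2af1 had 5.07 CPM (UMIs of the gene per 1000000 UMIs of the class) in pancreas control and 0.606 CPM in pancreas CD4-Cre. In lymph node T cell barcodes it had 4.81 and 0 CPM. The pancreas libraries shared 46 barcode sequences, and the other pairs of libraries shared 21 to 70. Of the barcodes with at least 10 hormone UMIs, 1 was also listed in the other pancreas library, where the same sequence marked a T cell barcode with 0 hormone UMIs. Leukocyte classes were cut from the summed UMIs of a few marker genes, at least 5 UMIs of C1qa, C1qb and C1qc for macrophages and at least 3 for the others. The macrophage gate held 120 barcodes in control and 103 in CD4-Cre, and Csf1r, a macrophage gene not used by the gate, was detected in 95% and 100% of them. The check was weaker for cDC2, gated on Cd209a, Clec10a and Mgl2, of which 30.8% and 29.7% had a UMI of Flt3, while Irf8 was found in 95.8% and 96.7% of cDC1, gated on Xcr1, Clec9a and Cadm1. Macrophage barcodes were deeper than T cell barcodes, with medians of 8159 and 9184 UMIs against 3442 and 3550. The gate for exocrine cells kept only 1 and 6 barcodes.

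The lymph node libraries gave a zero level for insulin in T cells, which made up 95.3% and 98.3% of their kept barcodes. They held only 3 and 5 macrophage, 6 and 1 cDC1 and 2 and 0 cDC2 barcodes, too few to set it for those classes. Insulin and Iapp had 0 UMIs in all 3059 barcodes listed for lymph node control and in all 6528 listed for CD4-Cre. In the T cell barcodes a count of 0 allows up to 0.110% of 2722 barcodes in control and up to 0.0563% of 5332 in CD4-Cre. The only hormone UMIs were 1 of Gcg and 2 of Chga in control and 1 of Chga in CD4-Cre, in 4 different barcodes, whereas the pancreas libraries listed 7657 and 949 hormone UMIs. RNA of exocrine cells was not at 0 in lymph node T cell barcodes, with 2.99 CPM in control and 5.19 CPM in CD4-Cre. Pancreas T cell barcodes had 202 and 170 CPM of it. Tissue, age and cell selection differed together between the 2 pairs of libraries.

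Insulin RNA, the sum of Ins1 and Ins2, was concentrated in macrophages and dendritic cells of the pancreas. In control, macrophages had 547 insulin UMIs, which is 496 CPM (455 to 539), or 4.56 UMIs per barcode. The cDC1 (type 1 conventional dendritic cells) had 135 CPM (104 to 173) and the cDC2 (type 2) had 38.3 CPM (24.8 to 56.6). T cells had 6.90 CPM (5.32 to 8.81) and B cells 1.49 CPM (0.548 to 3.25). Macrophages were thus the highest class in control, with an interval above those of all other leukocyte classes. In CD4-Cre, macrophages had 198 CPM (173 to 226, from 220 UMIs), cDC2 81.4 CPM (62.8 to 104) and cDC1 36.8 CPM (21.8 to 58.1). T cells of that library had 14.8 CPM (13.1 to 16.8) and B cells 1.23 CPM (0.493 to 2.53). Single barcodes set the levels of the smaller classes. Monocytes of control stood at 81.8 CPM (56.7 to 114), overlapping cDC1, but all 34 UMIs lay in 1 barcode, and 54 monocyte barcodes of CD4-Cre had 0. Without the barcode with the most insulin in each class, a setting chosen after the data were seen, cDC1 of control had 39.1 CPM (22.8 to 62.6) and cDC2 31.2 CPM (19.1 to 48.2). In CD4-Cre, cDC1 then had 25.5 CPM (13.2 to 44.6) and cDC2 7.68 CPM (2.82 to 16.7), which overlapped the 9.23 CPM (7.82 to 10.8) of T cells. Macrophages remained the highest class in both libraries, at 405 CPM (368 to 445) and 142 CPM (121 to 166).

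Neutrophils and NK cells had no insulin UMI in either library. That is 0 of 127 and 0 of 67 neutrophil barcodes, which allow shares of up to 2.36% and 4.48%, and 0 of 167 and 0 of 245 NK barcodes, which allow up to 1.80% and 1.22%. The exocrine gate also had 0 insulin UMIs. Before filtering, 20 barcodes of control and 25 of CD4-Cre drew at least 10% of their UMIs from exocrine genes, and none held a hormone UMI. These barcodes were shallow, at medians of 743 and 944 UMIs, and the count of 0 allows up to 152 and 52.0 CPM, so levels like those of the dendritic cells were not detectable there in every case. Macrophages made up 2.99% of the kept barcodes of control and 5.79% of their UMIs but held 57.7% of the insulin UMIs, leaving out 1 barcode with the RNA profile of a beta cell that is described below. In CD4-Cre macrophages made up 1.65% of barcodes and held 32.1% of the insulin UMIs, and T cells, at 64.7% of barcodes, held 35.7%.

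**Figure D1:**
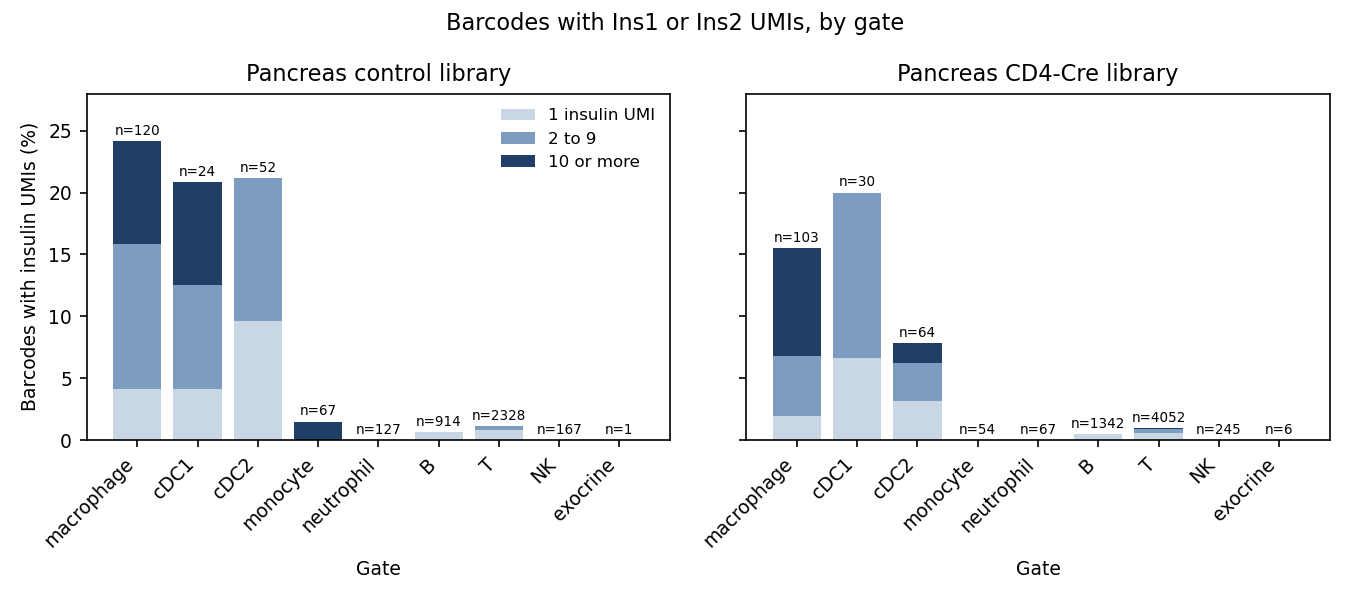
Share of barcodes (vertical axis, percent) with 1, with 2 to 9 and with 10 or more insulin UMIs in each gate (horizontal axis) of the pancreas control and CD4-Cre libraries, with the number of barcodes above each bar. Macrophages and dendritic cells stand between 7.81% and 24.2%, and B and T cells at or under 1.16%. The shares are not thinned, and macrophage and dendritic cell barcodes were deeper than B and T cell barcodes.

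Before thinning for depth, the share of barcodes told the same classes apart. An insulin UMI was detected in 24.2% (16.8 to 32.8) of macrophage barcodes in control and in 15.5% (9.15 to 24.0) in CD4-Cre. For cDC1 the shares were 20.8% (7.13 to 42.1) and 20% (7.71 to 38.6), and for cDC2 21.2% (11.1 to 34.7) and 7.81% (2.59 to 17.3). T cell barcodes had an insulin UMI in 1.16% (0.766 to 1.68) and 0.987% (0.706 to 1.34), and B cell barcodes in 0.656% (0.241 to 1.42) and 0.522% (0.210 to 1.07). The macrophage intervals lay above those of T and B cells in both libraries, while the 3 myeloid classes overlapped one another. Depth differed between the classes, so each barcode was also thinned to 1000 UMIs. The macrophage shares then were 10.0% (5.27 to 16.8) and 8.74% (4.07 to 15.9), against 0.389% (0.178 to 0.737) and 0.397% (0.227 to 0.643) in T cells. Thinning left out 0 macrophage barcodes in either library and 13 and 17 T cell barcodes. Dendritic cell barcodes were deeper still, with medians of 18327.5 and 16053.5 UMIs for cDC1 and 12747.5 and 12847.5 for cDC2. After thinning, the cDC1 and cDC2 shares rested on 1 or 2 barcodes each. They were 4.17% (0.105 to 21.1) and 3.85% (0.469 to 13.2) in control. In CD4-Cre they were 6.67% (0.818 to 22.1) and 1.56% (0.0396 to 8.40). All but cDC1 of CD4-Cre overlapped the T cell interval of the same library.

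The hormone UMIs were not spread evenly over the barcodes of a gate. Of the 120 control macrophages, 91 had 0 insulin UMIs, 5 had 1, 14 had 2 to 9 and 10 had 10 or more. Those 10 barcodes held 483 of the 547 UMIs, and the 3 highest held 108, 73 and 72. In CD4-Cre, 87 of 103 macrophages had 0, 2 had 1, 5 had 2 to 9 and 9 had 10 or more, and those 9 held 200 of 220 UMIs. Macrophages with at least 10 insulin UMIs made up 8.33% and 8.74% of the gate. B cells looked different, with 6 and 7 insulin UMIs that each lay in a barcode of its own. Among T cells, 19 and 22 barcodes had 1 insulin UMI, 7 and 13 had 2 to 9, and 1 and 5 had 10 or more.

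Per barcode, the excess of macrophages over the T cell background was large for insulin. Macrophages had 166 times (128 to 218) the insulin UMIs of a T cell barcode in control and 35.3 times (29.3 to 42.5) in CD4-Cre. Relative to all UMIs of the barcodes the ratios were 71.9 (55.4 to 94.6) and 13.3 (11.1 to 16.0). Among all genes with at least 20 UMIs over both gates, 41.6% in control and 46.3% in CD4-Cre were at least 2-fold higher per barcode in macrophages with an interval above 1. The greater depth of macrophage barcodes enters that scale. On the CPM scale the shares were 15.4% and 14.7%. Of the 9 members, 3 (Ins1, Ins2 and Iapp) had enough UMIs, and all 3 passed in both libraries and on both scales. Iapp in both libraries and Ins1 in control reached the minimum only through macrophages, with under 20 UMIs in T cells, so their passing carries no weight of its own. Without the barcodes that held 10 or more hormone UMIs, the ratio per barcode was 30.9 (20.1 to 48.0) in control, and 12.8 (7.39 to 21.4) was left for CD4-Cre. Part of the T cell reference came from such barcodes. Leaving them out of T cells alone, a choice made after the data were seen, the ratios became 279 (201 to 399) and 129 (97.7 to 172).

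Other RNAs that leukocytes other than their source should lack were read in the same way. RNA of B cells (Igkc, Ighm, Iglc2, Iglc3, Cd79a and Jchain) was 2.10 times (1.82 to 2.42) as high per macrophage barcode as per T cell barcode in control and 1.63 times (1.39 to 1.91) in CD4-Cre. That is well below the insulin ratio in both libraries. Cd79a is also a marker of the B cell gate, however. Macrophage and T cell barcodes with at least 3 UMIs of that gate's markers were left out as mixed. This limited B cell RNA in both classes beforehand, while no gate limited insulin. How far the gate set these B cell RNA ratios was not tested. RNA of exocrine cells behaved otherwise, with 34.4 times (32.5 to 36.4) the T cell level per macrophage barcode in control, a value that was 30.9 (29.2 to 32.7) in CD4-Cre. An exocrine UMI was present in 77.5% of control macrophages and 88.3% of CD4-Cre macrophages, against 14.9% and 14.6% of T cell barcodes. Hormones per 1000 exocrine UMIs were 177 in macrophages and 36.9 in T cells of control, a ratio of 4.80 (3.72 to 6.20), and 112 and 94.4 in CD4-Cre, a ratio of 1.19 (0.989 to 1.42). The interval lay above 1 in control and included 1 in CD4-Cre. The CD4-Cre value depended on the gate for exocrine cells: with that gate at 5% of UMIs in place of 10% it was 1.82 (1.52 to 2.20), and at 20% it was 1.78 (1.48 to 2.13). A single CD4-Cre macrophage barcode held 840 of the 2205 exocrine UMIs of its class. The 5% gate left 102 macrophages in place of 103, and the 20% gate gave 4054 T cell barcodes in place of 4052. Few barcodes thus decided whether the interval included 1. Without barcodes of 10 or more hormone UMIs the ratio turned to 0.814 (0.549 to 1.21) in control and was 0.384 (0.238 to 0.619) in CD4-Cre.

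**Figure D2:**
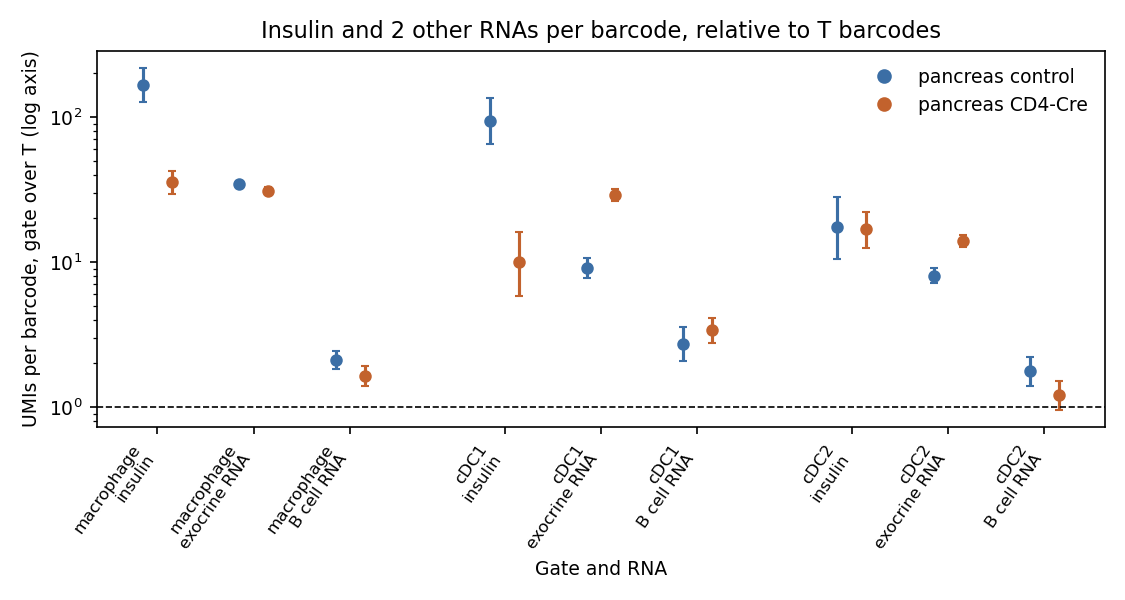
UMIs per barcode relative to T cell barcodes of the same library (vertical log axis) for insulin, exocrine RNA and B cell RNA in macrophages, cDC1 and cDC2 (horizontal axis), with 95% counting intervals and a dashed line at 1. In macrophages insulin stands at 166 in control and 35.3 in CD4-Cre, and B cell RNA at 2.10 and 1.63.

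The amount of insulin relative to exocrine RNA varied between the classes. Insulin UMIs per 1000 exocrine UMIs in control were 352 in cDC1, 165 in macrophages, 74.4 in cDC2, 64.6 in monocytes, 34.2 in T cells and 3.66 in B cells. In CD4-Cre they were 105 in cDC2, 99.8 in macrophages, 87.3 in T cells, 29.8 in cDC1 and 3.12 in B cells. Of the insulin UMIs behind these values, 45 of 62 in cDC1 of control and 59 of 65 in cDC2 of CD4-Cre lay in 1 barcode. Classes with no insulin UMI had 302 exocrine UMIs (neutrophils) and 51 (NK cells) in control, and 133 (monocytes), 56 (NK cells) and 11 (neutrophils) in CD4-Cre. B cells were below T cells in both libraries, and 15.1% and 11.3% of B cell barcodes held an exocrine UMI. What sets these differences was not tested.

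Among the hormones, the insulin genes led and the RNAs of other islet cells were rare. Ins2 had 408 and Ins1 139 UMIs in control macrophages, and 150 and 70 in CD4-Cre macrophages. Ins1 and Ins2 are close paralogs, so how their reads were divided depends on the authors' counting. Iapp had 21 UMIs in 12 control macrophages, 11 of which also held insulin, and 20 UMIs in 9 CD4-Cre macrophages, all of which held insulin. Its level of 19.0 CPM in control and 18.0 CPM in CD4-Cre differed less than its counting error. Gcg, the alpha cell hormone, had 15 UMIs in control macrophages, 14 of them in 1 barcode that also held 72 insulin UMIs, and 1 UMI in CD4-Cre. In cDC1 of control it had 7 UMIs, all in 1 barcode. Sst, the delta cell hormone, had 1 and 5 UMIs in macrophages and 0 and 2 in T cells. Ppy and Pyy had at most 2 UMIs in macrophages of either library. Chga had 1 and 0 UMIs there, and Scg2 had 0 in every leukocyte gate of both libraries. These counts of the rarer members are too low to compare classes.

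Ins1 and Ins2 were found together in the macrophages that held insulin. All 19 control macrophages with an Ins1 UMI also had Ins2, as did 13 of 14 in CD4-Cre. In T cells 3 of 13 barcodes with Ins1 had Ins2 as well in control, and 12 of 20 in CD4-Cre, and in B cells none of 3 and none of 5 did. T cells and B cells held fewer insulin UMIs per positive barcode, which limits how often both genes can be seen. Ins2 made up 74.6% (70.7 to 78.2) of insulin UMIs in control macrophages and 68.2% (61.6 to 74.3) in CD4-Cre macrophages. The T cell shares were 76.6% (64.3 to 86.2) and 68.2% (61.9 to 74.0), inside the macrophage intervals of the same library. Iapp made up 3.70% (2.30 to 5.60) of the Ins1, Ins2 and Iapp UMIs in control macrophages and 8.33% (5.16 to 12.6) in CD4-Cre.

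One barcode of the control library supplied a direct comparison. It fell in no leukocyte gate, had 0 Ptprc (CD45) UMIs and 0 exocrine UMIs, and held 3476 Ins2, 2125 Ins1 and 625 Iapp UMIs among 9285. Chga had 13 UMIs and Scg2 8, and insulin made up 60.3% of all its UMIs, as in a beta cell. Its Ins2 share was 62.1% (60.8 to 63.3), below the interval of control macrophages, and its Iapp share of 10.0% (9.30 to 10.8) was above it. Both shares lay inside the wider CD4-Cre macrophage intervals. In the macrophage with the most insulin, by contrast, insulin was 0.537% of 20124 UMIs, with 574 UMIs of the C1q genes, 1106 of Cd74 and 0 of the T and B cell markers.

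**Figure D3:**
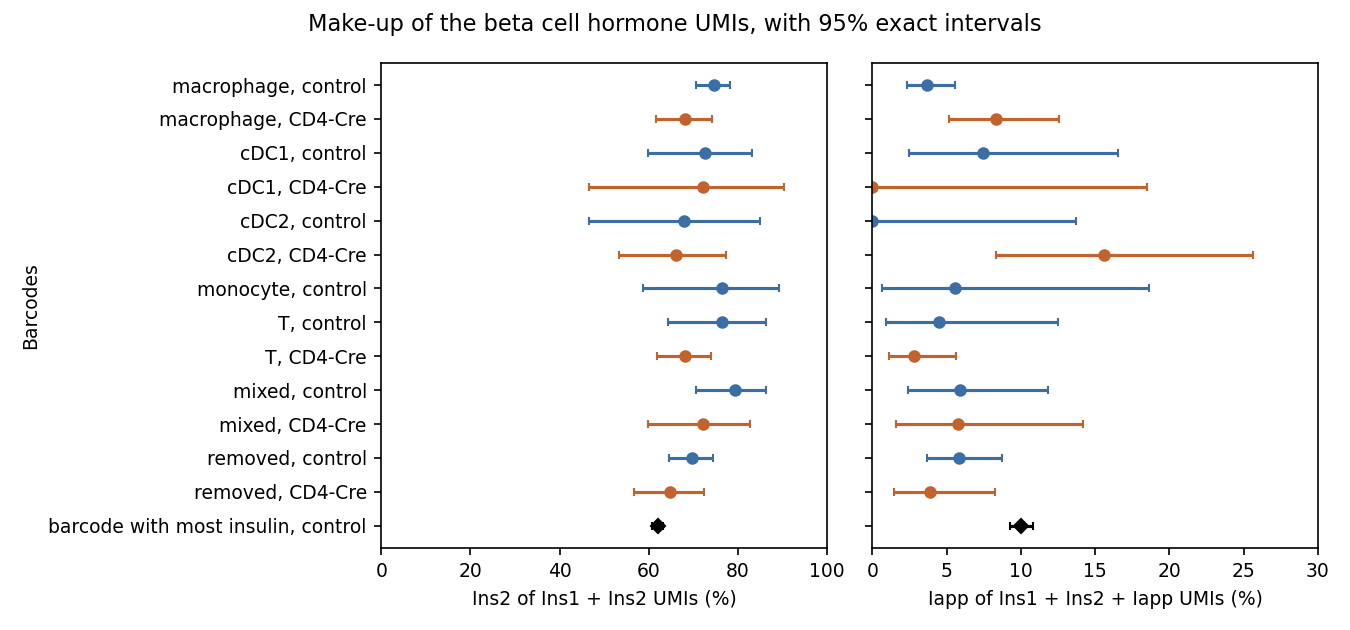
Share of Ins2 in insulin UMIs (left) and of Iapp in Ins1, Ins2 and Iapp UMIs (right), in percent on the horizontal axes, for gated, mixed and removed barcodes of both pancreas libraries and for the control barcode with the most insulin (diamond), with exact 95% intervals. Ins2 is 74.6% in control macrophages and 62.1% in the diamond.

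Windows before the annotated starts of Ins1 and Iapp, genes active in beta cells, are shown with that of Gcg, which is active in alpha cells. Whether these annotated starts are the ones used in islet cells was not tested. RefSeq entries of GRCm38.p6 were matched for 8 of the 9 members. The windows hold the 250 bases before the start of the gene, read 5′ to 3′ on its strand, at chr19:52264047-52264296 (+) for Ins1, chr6:142298175-142298424 (+) for Iapp and chr2:62483654-62483903 (-) for Gcg. Capitals mark TAAT on either strand, the core recognised by homeodomain factors such as Pdx1, which drives insulin transcription in beta cells.
Ins1: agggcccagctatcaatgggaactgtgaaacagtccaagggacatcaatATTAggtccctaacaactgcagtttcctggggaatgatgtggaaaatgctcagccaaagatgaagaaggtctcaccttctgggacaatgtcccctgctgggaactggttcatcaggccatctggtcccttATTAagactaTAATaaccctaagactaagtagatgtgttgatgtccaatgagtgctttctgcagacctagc
Iapp: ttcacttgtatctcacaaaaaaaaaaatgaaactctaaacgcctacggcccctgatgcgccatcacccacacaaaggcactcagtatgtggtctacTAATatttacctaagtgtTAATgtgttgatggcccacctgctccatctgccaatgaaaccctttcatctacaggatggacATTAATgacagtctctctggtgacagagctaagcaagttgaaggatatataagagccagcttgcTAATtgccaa
Gcg: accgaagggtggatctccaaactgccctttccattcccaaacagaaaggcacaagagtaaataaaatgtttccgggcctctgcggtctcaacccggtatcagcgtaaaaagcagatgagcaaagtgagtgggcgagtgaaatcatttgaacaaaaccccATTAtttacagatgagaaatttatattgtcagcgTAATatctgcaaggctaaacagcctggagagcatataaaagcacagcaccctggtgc
The motif matched 3 times in Ins1, 5 times in Iapp, where 2 matches overlap, and 2 times in Gcg. Of 32851 such RefSeq windows, 54.9% hold it at least once, 30.8% at least 2 times and 17.3% at least 3 times. The E box CANNTG, the motif of factors such as Neurod1, matched 2, 3 and 3 times. Of the windows, 66.2% hold it at least once, 31.8% at least 2 times and 12.2% at least 3 times. A match describes the letters only. Of the factors known from the promoters of these genes, Pdx1, Neurod1, Mafa and Nkx6-1 had 0 UMIs in the macrophages of both libraries. They had 0 in the beta cell barcode too, so their absence separates nothing at this depth.

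Barcodes rich in hormone RNA were not limited to macrophages. At least 10 hormone UMIs were found in 24 kept barcodes of control and in 21 of CD4-Cre. In control, 11 were macrophages, 2 cDC1, 1 monocyte, 1 T cell, 4 mixed (markers of 2 classes) and 5 in no gate. In CD4-Cre, 9 were macrophages, 5 T cells, 1 cDC2, 4 mixed and 2 in no gate. Cd74, the invariant chain of antigen-presenting cells, had at least 100 UMIs in 21 of the 24 and in 16 of the 21, a threshold set after the data were seen. Below that were the beta cell barcode with 10, 1 macrophage with 55, and the T cell barcodes, which had 0 Cd74 UMIs in 1 of 1 and 5 of 5. The T cell barcode with the most insulin held 93 insulin, 6 Gcg and 4 Iapp UMIs among 26514 UMIs in CD4-Cre, with 150 UMIs of T cell receptor and CD3 genes. In that barcode alone lay 38.0% of the T cell insulin UMIs of its library. Of the T cell insulin UMIs in control, 40.6% lay in 1 barcode with 26.

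Exocrine and hormone RNA occurred in largely different macrophages. Of the 11 control macrophages with at least 10 hormone UMIs, none had 10 exocrine UMIs, compared with 45.9% of the other macrophages. In CD4-Cre, 1 of 9 did, compared with 39.4% of the others. Macrophages with at least 2 insulin UMIs had a median of 0.5 exocrine UMIs in control (0 to 67, 24 barcodes), and those with 0 insulin had a median of 10 (0 to 652, 91 barcodes). The corresponding medians in CD4-Cre were 1 (0 to 20, 14 barcodes) and 7 (0 to 840, 87 barcodes). The macrophages with insulin were the deeper ones, with medians of 13151.5 and 13566 UMIs against 7248 and 8280. Exocrine RNA was at 374 and 259 CPM in macrophages with insulin and at 4097 and 2416 CPM in those without. B cell RNA per barcode was 2.33 and 1.14 in macrophages with insulin and 1.73 and 1.70 in those without, higher in control and lower in CD4-Cre. On the CPM scale, which takes out depth, it was lower with insulin in both libraries. The levels were 174 and 84.7 CPM in macrophages with insulin and 216 and 167 CPM in those without.

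**Figure D4:**
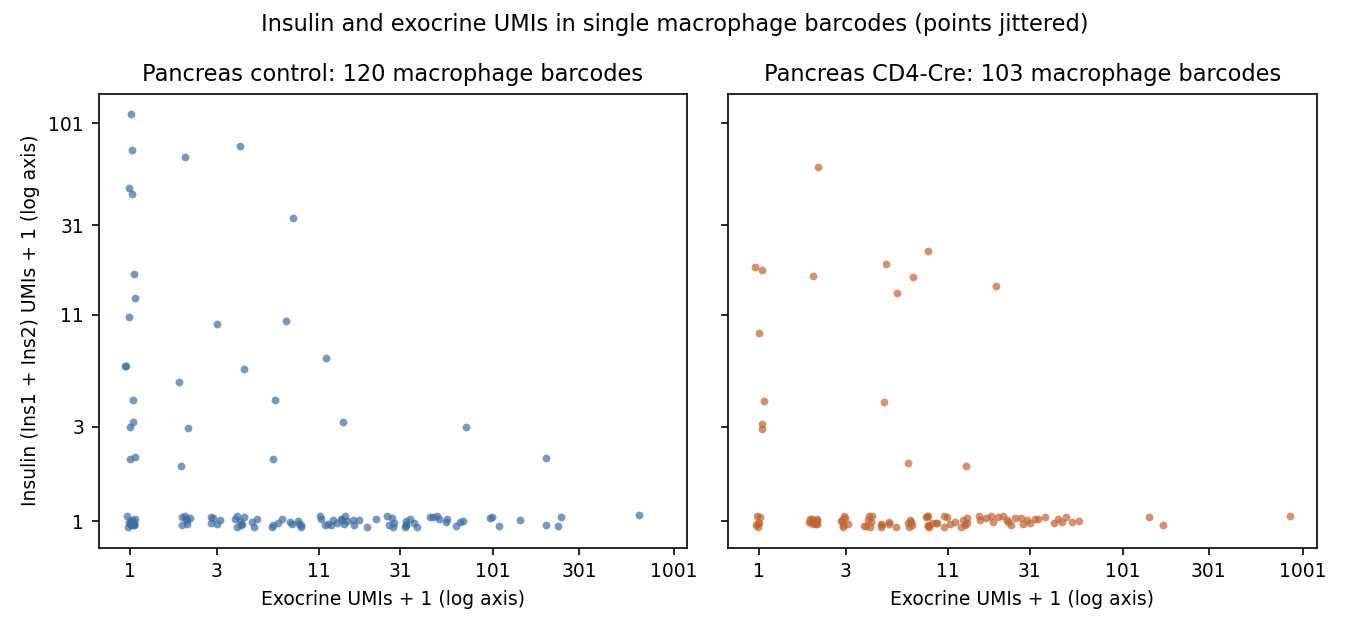
Insulin UMIs plus 1 (vertical log axis) against exocrine UMIs plus 1 (horizontal log axis) in each macrophage barcode of control (120 points) and CD4-Cre (103 points), jittered. Barcodes with much insulin lie at the left, where exocrine UMIs are few, and barcodes with many exocrine UMIs lie along the bottom.

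The macrophages with insulin also had another RNA profile. The split was made on insulin after the data were seen, so the genes are a description with no test, ranked by the smaller difference of the 2 libraries on the scale of log2(CPM + 10) among genes with at least 50 UMIs in macrophages. Highest in macrophages with insulin was Mmp14, a membrane metalloproteinase, at 215 against 13.7 CPM in control and 207 against 6.78 CPM in CD4-Cre. Acp5, the acid phosphatase of osteoclasts and some macrophages, was at 1189 against 122 CPM and at 1038 against 70.1 CPM. Next came Tlr12, an endosomal Toll-like receptor, and Cxcl13, a chemokine that attracts B cells, with log2 differences of 3.32 and 3.02 in control and 3.09 and 5.90 in CD4-Cre. Itgax (CD11c) was at 308 against 49.4 CPM and 291 against 29.4 CPM. Dnase1l3, a secreted nuclease, Cxcl9, an interferon-induced chemokine, and the complement genes C3 and Cfb were also among the 12 highest.

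Lowest in macrophages with insulin was Lyz1, a lysozyme, with log2 differences of -2.61 in control and -5.87 in CD4-Cre. Lpl (lipoprotein lipase), Cd36 (a fatty acid receptor), Klf4, F13a1 (coagulation factor XIII) and the chemokines Ccl6 and Ccl9 were among the 12 lowest. Several genes known from macrophages outside islets were looked up because of this ranking. Mrc1, the mannose receptor, was at 115 against 621 CPM in control and 90.0 against 320 CPM in CD4-Cre. Lyve1 was at 93.4 against 224 CPM and Cd163, a haemoglobin scavenger receptor, at 34.2 against 273 CPM in control, but in CD4-Cre the intervals of their ratios included 1, at 0.532 (0.165 to 1.34) and 0.485 (0.0945 to 1.56). Folr2, a folate receptor, was at 90.3 against 427 CPM and 5.30 against 47.5 CPM. Retnla was at 7608 against 22602 CPM and 3214 against 32146 CPM. The C1q genes of the gate were slightly higher in macrophages with insulin, with C1qa at 6503 against 5193 CPM and 5824 against 3592 CPM, and Csf1r was at 638 against 906 CPM and 694 against 626 CPM. Adgre1 (F4/80) was at 106 against 343 CPM in control and 164 against 228 CPM in CD4-Cre. The CD4-Cre ratio of Adgre1 was 0.719 (0.476 to 1.05), which also included 1.

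**Figure D5:**
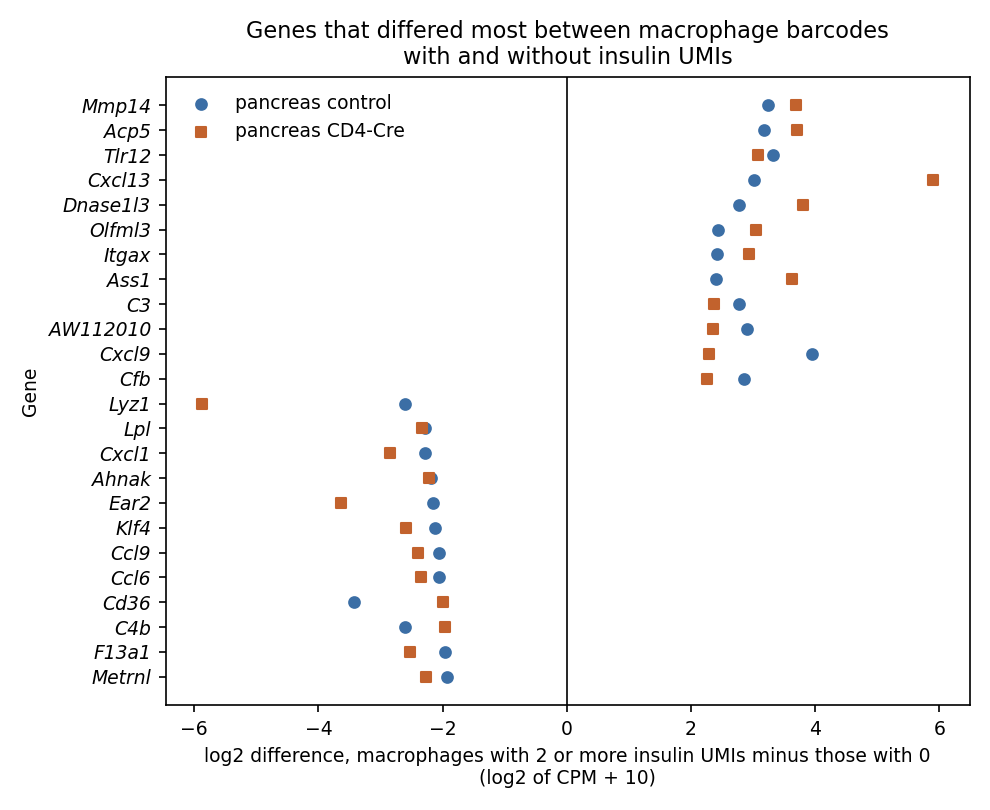
Difference in log2(CPM + 10) between macrophage barcodes with 2 or more insulin UMIs and those with 0 (horizontal axis) for the 12 highest and the 12 lowest genes outside the hormone, endocrine and exocrine lists (vertical axis), in control (circles) and CD4-Cre (squares). All 24 genes lie on the same side of 0 in both libraries, which the ranking requires.

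Most other genes of endocrine cells had few or no UMIs in the leukocytes. Of 42 further endocrine genes, 30 had 0 UMIs in macrophages of both libraries and 19 had 0 in all leukocyte gates. In the leukocyte gates 9 of the 42 had at least 20 UMIs, and 15 were counted in the beta cell barcode. Those with the most UMIs were largely genes that leukocytes use themselves. Gnas, the stimulatory G protein, had 571 and 623 UMIs in macrophages and 5509 and 9477 in the far more numerous T cells. That is 518 and 560 CPM against 594 and 574 CPM. Ero1lb, an oxidase of protein folding, and Hhex, a transcription factor, had most of theirs in B cells, with 564 and 742, and 430 and 621 UMIs. Scg5, a chaperone of prohormone convertase, had 157 and 244 UMIs in T cells and 2 and 2 in macrophages. Pam, which amidates peptides, had 70 and 88 in T cells and 12 and 5 in macrophages. That is 7.55 and 5.33 CPM in T cells against 10.9 and 4.49 CPM in macrophages. Papss2 had 10 and 5 UMIs in macrophages, and Ttr, an alpha and beta cell gene, had 0 in every leukocyte gate. Over the 29 endocrine genes with at most 3 UMIs in lymphocytes, there were 9.14 UMIs per 1000 insulin UMIs (2.97 to 21.3) in control macrophages and 9.11 (6.78 to 12.0) in the beta cell barcode. CD4-Cre macrophages had 4.55 (0.115 to 25.3). The macrophage values rest on 5 UMIs in control and 1 in CD4-Cre, too few to tell the 3 values apart. T cells of CD4-Cre had 8.16 (0.989 to 29.5) from 2 UMIs, and T cells of control had 0 UMIs. The 29 genes were picked by their low lymphocyte counts in these data. That left out Cpe, with 13 UMIs in the beta cell barcode and 0 in macrophages.

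The receptors for these hormones were read in the same barcodes. Of 20 receptor genes, 13 had 0 UMIs in macrophages and 10 had 0 in all leukocyte gates, among them the glucagon receptor Gcgr. The receptors with the most UMIs were Ramp1, Igf2r, Ramp3, Igf1r and Insr. Insr, the insulin receptor, had 9 and 18 UMIs in macrophages and 81 and 170 in T cells, which is 8.16 and 16.2 CPM against 8.74 and 10.3 CPM. Ramp1, a partner of the receptors for calcitonin peptides and amylin, had 100 and 118 UMIs in macrophages and 1610 and 2707 in T cells. That is 90.7 and 106 CPM against 174 and 164 CPM. Calcr, the receptor subunit that amylin needs, had 0 UMIs in every gate. For comparison with the hormones, the most abundant exocrine RNAs were Ctrb1 (chymotrypsinogen), at 591 and 340 CPM in macrophages and 27.3 and 23.1 CPM in T cells, followed by Cela2a, Clps and Prss2.

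The libraries of the 2 genotypes differed in hormone RNA, with no replicate to set the difference against. Insulin in macrophages was at 496 CPM in control and at 198 CPM in CD4-Cre, for a log2 ratio of -1.33 (-1.56 to -1.10). Ins2 gave -1.46 (-1.74 to -1.18), Ins1 -1.0 (-1.44 to -0.58) and Iapp -0.08 (-1.04 to 0.87). Of the 3 members with at least 20 UMIs in macrophages, Ins1 and Ins2 were at least 2-fold lower with an interval below 1, against 3.56% of all 7750 genes compared. The Ins1 ratio of 0.499 (0.369 to 0.670) was at the edge of that threshold and missed it with TMM (0.504), with size factors (0.504) and per barcode (0.587), while Ins2, at 0.364 (0.300 to 0.441), passed it in all of these. The share of macrophages with 10 or more insulin UMIs was 8.33% and 8.74%, while the 10 control barcodes held 483 UMIs and the 9 CD4-Cre barcodes 200. In T cells insulin went the other way, with 0.0275 UMIs per control barcode against 0.0605, or 1.14 as a log2 ratio (0.73 to 1.56). Without barcodes of 10 or more hormone UMIs that T cell ratio was 1.01 (0.671 to 1.55) on the linear scale, so the difference rested on 6 barcodes. In cDC1 the log2 ratio of CPM was -1.88 (-2.72 to -1.10), with 45 of the 62 control UMIs in 1 barcode, and in cDC2 it was 1.09 (0.40 to 1.81), with 59 of the 65 CD4-Cre UMIs in 1 barcode. Exocrine RNA in macrophages, read as another RNA from outside, was at 3008 and 1982 CPM, a log2 ratio of -0.60 (-0.68 to -0.52). Whether the exocrine level and the insulin level differ for a shared reason was not tested, and genotype and library cannot be told apart.

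Over the 8 classes of both libraries (16 points, which share libraries), the genes whose log2(CPM + 1) was most like that of insulin were, outside its own 2 genes, Pld2 (Pearson r = 0.94), Frmd4a (0.91), Gbp2b (0.91), Tdrkh (0.90) and Maged1 (0.90). The exocrine class rests on 1 and 6 barcodes, and the ranking is a description. Pld2, a phospholipase, was at 18.1 and 17.1 CPM in macrophages and at 1.73 and 1.76 CPM in T cells, and Gbp2b, an interferon-induced GTPase, at 141 and 202 against 5.07 and 3.70 CPM. The ranking covered the 10749 genes with at least 100 UMIs over these classes, a minimum that no member but Ins1 and Ins2 reached (Iapp had 73 over both libraries).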

How the data were processed

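The deposited values are raw UMI counts for each gene in each barcode, which were not normalized. The matrix headers name software version 3.0.0, and per the submitters' processing notes the tools and builds named are Cell Ranger and mm10. The members, gene lists and gates were chosen with earlier results of these data known. Barcodes were kept with at least 500 genes and at most 10% mitochondrial UMIs, after removing the highest doublet scores (simulated doublets, 0.8% of barcodes per 1000 listed), 164, 388, 75 and 341 barcodes in pancreas control, pancreas CD4-Cre, lymph node control and lymph node CD4-Cre. Total counts were 20807342, 32798133, 14851217 and 27830077 UMIs in that order. Gates used raw marker UMIs; an exocrine barcode had at least 10% of its UMIs from 31 exocrine genes (Amy2b was absent from the features), and a barcode in 2 gates was mixed and left out, except that a macrophage stayed one where it also passed a dendritic or monocyte gate. Names of classes are rebuilt from these markers. Sums have exact Poisson, shares Clopper-Pearson and ratios exact conditional binomial 95% intervals; the ratio of 2 ratios used the variance of the logs of the 4 counts. A 0 was given a limit of 3 counts. All of these cover counting error only. Interval coverage was tested on simulated independent Poisson counts, which lack the clumping of hormone UMIs and so do not show coverage for these data. Named genes were the members, the 8 endocrine, 4 exocrine and 5 receptor genes with the most UMIs and the 5 genes most like insulin over the classes; genes of macrophages with insulin were ranked after the data were seen. One gene that the rule names is not reported here. Scaling by edgeR 4.0.16 (TMM) and DESeq2 1.42.0 (size factors) was an alternative. Python 3.11.15, scipy 1.17.1 and R 4.3.3 were used.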

Additional observations from a re-analysis of the deposited data

Results flagged for a closer look

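Hormone RNA was also present in barcodes that no comparison used, while insulin had 0 UMIs in the lymph node libraries. The ungated barcodes of pancreas control held 5700 insulin UMIs, 5601 of them in the barcode with the profile of a beta cell, and the ungated barcodes of pancreas CD4-Cre held 66. Of the ungated barcodes with at least 10 hormone UMIs, 4 of 5 in control and 2 of 2 in CD4-Cre had at least 100 Cd74 UMIs. Mixed barcodes held 111 insulin UMIs in control and 65 in CD4-Cre.

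Barcodes removed by the filters held 353 insulin UMIs in control and 148 in CD4-Cre. Of the 8 removed control barcodes with at least 10 hormone UMIs, 7 had over 10% mitochondrial UMIs (16.5% to 72.0%), at 503 to 1432 UMIs in all, and in 4 of them insulin was over 5% of the UMIs, up to 14.7%. One such barcode in CD4-Cre had 79.9% mitochondrial UMIs and 38 insulin UMIs among 790. Ins2 made up 69.7% (64.6 to 74.4) of the insulin UMIs of all removed barcodes in control, beside 75.2% (72.3 to 77.9) in the kept barcodes without the beta cell barcode, and 64.9% (56.6 to 72.5) beside 68.5% (64.6 to 72.2) in CD4-Cre.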

How the results depend on the processing

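Of 75 recomputed values, 49 stayed within the counting interval of the value reported. The insulin ratio of macrophages over T cells per barcode stayed above 1 under every alternative run, from 30.9 to 694 in control and from 12.8 to 409 in CD4-Cre. It was 124.5 in control with all barcodes listed, 226 in control without the highest barcode of each gate, 71.9 and 13.3 on the CPM scale, 694 and 409.5 with B cells as the reference, 42.3 in control after thinning to 1000 UMIs, 30.9 and 12.8 without barcodes of 10 or more hormone UMIs, and 279 and 129 without such T cell barcodes, a setting chosen after the data were seen. Hormones per 1000 exocrine UMIs, macrophages over T cells, turned from above to below 1 in both libraries without barcodes of 10 or more hormone UMIs, to 0.814 (0.549 to 1.21) in control and, for CD4-Cre, 0.384 (0.238 to 0.619); by construction that setting removes the barcodes that held most hormone UMIs. This ratio was 3.64 in control and 1.43 in CD4-Cre with all barcodes listed, 6.21 in control without the highest barcode of each gate, 1.82 and 1.78 in CD4-Cre with the exocrine gate at 5% and 20% of UMIs, 78.4 and 22.4 against B cell RNA, and 43106 and 4.19 against red cell RNA, which had only 1 and 2 UMIs in macrophages and, in T cells of control, 5030 of 5067 UMIs in 1 barcode. Without that barcode, left out after the data were seen, the control value was 324 (43.8 to 2401). The insulin ratio in T cells of CD4-Cre over control moved from 2.20 to 1.01 without barcodes of 10 or more hormone UMIs, and the macrophage ratio from 0.399 to 0.469 per barcode. The T cell share with a hormone UMI in CD4-Cre was 0.446% thinned to 1000 UMIs and 0.720% thinned to 2000. No paired analysis was possible because each group had 1 library.

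The counts limit what can be said of Gcg, Sst, Ppy, Pyy, Chga and Scg2 in every class, of exocrine barcodes, and of dendritic cells, where 1 barcode often held most of the hormone UMIs.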

Other observations

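Markers of other cells of the pancreas were counted in the same gates. Mast cell markers had 0 UMIs in macrophages of both libraries, stromal markers had 4 and 3, and ductal markers 4 and 6. Endothelial markers, some of which leukocytes also express, had 11 and 13 UMIs in macrophages and 437 and 822 in T cells. They were found in 10 of 120 and 11 of 103 macrophage barcodes, and in 366 of 2328 and 713 of 4052 T cell barcodes. Red cell RNA had 5067 UMIs in T cell barcodes of control, 5030 of them in 1 barcode, which leaves 37, and 9 in CD4-Cre. Macrophages had 1 and 2 UMIs of it.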
